A study of Zea mays with 3 samples.

Results

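A group of 99 probes, of 42034 on the maize array, kept a level signal between anthers of 1.0 and 1.5 mm and then lost signal in anthers of 2.0 mm. They were selected on their measured values. The mean log2 intensity had to change by less than 0.5 from 1.0 to 1.5 mm and to fall by at least 1 (a halving) from 1.5 to 2.0 mm, in both of the maize lines compared, and the lines had to differ by less than 0.58 at each length. Those limits were met by 0.236% of the probes. All contrasts between lengths and lines therefore entered the choice, and the values below are a description with no test. The 99 probes carry 98 gene names, since TC287746 is measured by 2 of them. For most, the array gives only the name of an assembled or single cDNA (TC or an EST name). A gene model was paired with 30 and a description with 11.

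RNA of whole anthers was compared on 12 arrays with 2 colors, 4 at each length. Each array held anther RNA of a Mu-active line, in which the Mutator transposons move, and of a Mu-inactive line, in which the same transposon family is silent, and the dyes were exchanged on 2 of the 4 arrays. Both lines were grown in a field, with no treatment, and the frozen tissue was extracted at anther lengths of 1.0, 1.5 and 2.0 mm. The labels number 4 replicates per length and line without saying whether they came from separate plants. The 4 arrays of a length lay on 1 slide, so length and slide cannot be told apart. Whole anthers were used, so fewer cells of a type and less RNA per cell cannot be told apart either. The labels name the dyes by replicate but not the array of each replicate. The lines were assigned through the direction of the deposited ratios, and read by array number they would be exchanged. The 99 probes are the same with the lines exchanged.

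A maize anther has lobes in which a core of germinal cells is wrapped in rings of somatic cells, from the epidermis and endothecium outside to the middle layer and the tapetum inside. Germinal cells leave mitosis for meiosis while division slows in the somatic layers and they specialize. The tapetum later feeds the developing pollen. The study places anthers of 1.0 mm before meiosis, those of 1.5 mm at its start and those of 2.0 mm at pachytene, when homologous chromosomes are paired. It places the start of meiosis at a greater length in other inbred lines. For the anthers used here, length is the only stage recorded.

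In the whole group, the median log2 level was 10.13 at 1.0 mm, 10.05 at 1.5 mm and 8.68 at 2.0 mm in Mu-active anthers. In Mu-inactive anthers it was 9.94, 10.07 and 8.76 at the same lengths. The median change from 1.5 to 2.0 mm was -1.20 in Mu-active anthers (range -2.76 to -1.0005) and -1.23 in Mu-inactive anthers (range -2.36 to -1.01), where all probes had medians near 0.00. Most falls were close to the limit. Only 9 probes fell by at least 1.5 in both lines, and 2 by at least 2. The falls in the lines differed by less than 0.25 for 80 of the 99 probes, which the limit on the line difference favors. Across the array, 315 probes fell by at least 1 in both lines from 1.5 to 2.0 mm (0.749%), 406 rose by as much (0.966%), and 34254 stayed within 0.5 from 1.0 to 1.5 mm in both lines (81.5%).

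**Figure D1:**
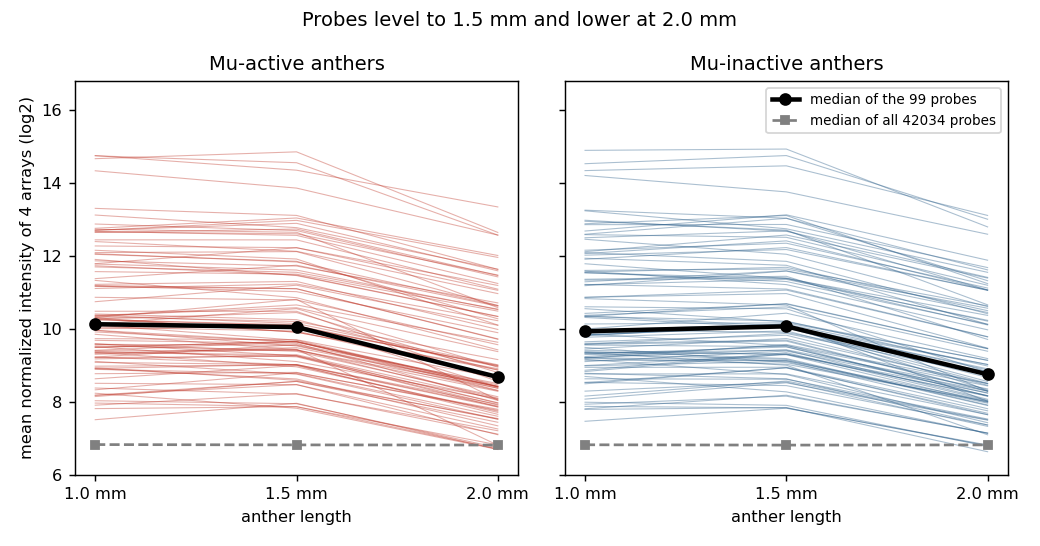
Mean log2 intensity over 4 arrays at each anther length for the 99 probes (thin lines), in Mu-active (left) and Mu-inactive (right) anthers, with their median (black) and the median of all 42034 probes (dashed). The median of the 99 probes was 8.68 at 2.0 mm and 10.05 at 1.5 mm in Mu-active anthers.

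The transcripts did not disappear. All 99 were detected at all 3 lengths in both lines, where detected means that at least 3 of 4 arrays exceeded the average of 153 negative control spots by more than 3 of their SDs. Of all 42034 probes, 27125 to 31826 were detected per line and length. The cutoff lay between 78.7 and 90.4 intensity units over all channels. The mean intensity of the 99 probes ranged at 2.0 mm between 105 and 10681 in Mu-active anthers, and at 1.5 mm between 237 and 30832. At 1.5 mm, 95 of the 99 lay above the upper quartile of all probes. The choice favors this and detection up to 1.5 mm, since without background subtraction only a probe well above background can halve. No spot of theirs was saturated.

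The arrays of a group varied more for these probes than for the array as a whole. The median SD between the 4 arrays of a line and length was 0.31 to 0.44 on the log2 scale, against 0.13 to 0.16 over all probes, most of which lie near background. In Mu-active anthers, 80 of the 99 probes had all 4 values at 2.0 mm below all 4 at 1.5 mm, which held for 5.42% of all probes. In Mu-inactive anthers this was so for 73 (6.78% of all probes) and in both lines for 66 (2.47%). The remaining 33 overlapped in at least 1 line. The choice favors such separation, since it used the same values, and both lines share the spots of each array. When any single array of a line was left out at 1.5 or 2.0 mm, 38 of the 99 still fell by at least 1 in both lines in each case, and no fall became smaller than 0.66.

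Changes between lengths are relative to the bulk of the probes, whose distribution was made equal in all channels. The 10 spike-in control probes, whose RNA is added in the laboratory and which are not maize genes, did not stay level on this scale. Their median moved by 1.38 from 1.0 to 1.5 mm and by 0.12 from 1.5 to 2.0 mm in the Mu-active channels, and by 0.66 and 0.58 in the Mu-inactive channels. With every channel shifted to an equal spike-in median, an alternative chosen after seeing the data, 49 probes met the limits and 0 of the 99 were among them, since the median of all probes then moved by -1.45 in Mu-active and -0.70 in Mu-inactive anthers already from 1.0 to 1.5 mm. All 99 were still lower at 2.0 than at 1.5 mm in both lines on that scale, which the choice favors. Level up to 1.5 mm therefore means level relative to the other probes.

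TC306979, with no gene model, had the largest fall. Its intensities were 198, 154, 385 and 419 in Mu-active and 129, 406, 457 and 403 in Mu-inactive anthers of 2.0 mm. At 1.5 mm they were 2046, 2107, 1489 and 1626 in Mu-active and 1927, 1019.9, 1887 and 1818 in Mu-inactive anthers. No value at 2.0 mm reached the lowest at 1.5 mm in either line. The log2 level fell by 2.76 ± 0.38 in Mu-active and by 2.36 ± 0.48 in Mu-inactive anthers (± SE, n = 4 arrays per length), a 6.79-fold and a 5.14-fold decrease. At 1.0 mm it had 1365, 715, 1403 and 1911 in Mu-active and 1542, 2309.9, 1722 and 1806 in Mu-inactive anthers, and its first step in Mu-active anthers, 0.499, was the largest of any of the 99 and just inside the limit.

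TC283102 (GRMZM5G816432) had little spread at 1.5 mm in Mu-active anthers. The 2.0 mm intensities were 1254, 1119, 1354 and 2933 in Mu-active and 1210.2, 1857, 1823 and 1679 in Mu-inactive anthers. The 1.5 mm intensities were 7046, 6845, 6314 and 5615 in Mu-active and 6569, 4109, 9172 and 8174 in Mu-inactive anthers. The level fell by 2.07 ± 0.32 in Mu-active and by 2.05 ± 0.29 in Mu-inactive anthers, again with no overlap. TC280511, with no gene model, gave one of the 3 highest intensities of the group. Mu-active anthers of 2.0 mm gave 4326, 4273, 9469.7 and 9680.1, and Mu-inactive anthers 7170.1, 11887, 8785 and 6170.2. Before, at 1.5 mm, there were 43337, 34193, 22807 and 22993 in Mu-active and 34406, 20459.6, 23564 and 35299.9 in Mu-inactive anthers. Neither line overlapped, and the level fell by 2.21 ± 0.40 in Mu-active and by 1.75 ± 0.28 in Mu-inactive anthers. The brightness of different probes on an array is not a measure of which transcript is more abundant.

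TC313699 (GRMZM2G049109) came close to the detection cutoff at 2.0 mm. Its intensities at 2.0 mm were 105, 98.1, 141 and 109 in Mu-active and 91.1, 212, 168 and 109 in Mu-inactive anthers. Anthers of 1.5 mm gave 1252, 495, 331 and 1149 (Mu-active) and 539, 327, 684 and 578 (Mu-inactive). At least 1 of its spots at 2.0 mm was not well above background, and without background subtraction a fall to such low values is understated. The level fell by 2.63 ± 0.48 in Mu-active and by 1.91 ± 0.36 in Mu-inactive anthers, with no overlap. TC312741 (GRMZM2G035503, a hypothetical protein) fell by 1.92 ± 0.26 in Mu-active and by 1.73 ± 0.42 in Mu-inactive anthers, and TC282211 (GRMZM2G045781) by 1.48 ± 0.25 in Mu-active and by 1.72 ± 0.30 in Mu-inactive anthers. Both had no overlap in either line. TC281959 fell by 1.81 ± 0.47 in Mu-active and by 1.44 ± 0.37 in Mu-inactive anthers, also without overlap. TC310472 and TC314119 (GRMZM2G322661) overlapped in both lines. TC310472 had 246 to 711 at 2.0 mm and 486 to 1989 at 1.5 mm in Mu-active anthers, and TC314119 605 to 1977 at 2.0 mm and 1742 to 6659 at 1.5 mm. Their changes were -1.70 ± 0.57 in Mu-active and -1.75 ± 0.53 in Mu-inactive anthers for TC310472, and -1.58 ± 0.60 in Mu-active and -1.62 ± 0.55 in Mu-inactive anthers for TC314119.

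**Figure D2:**
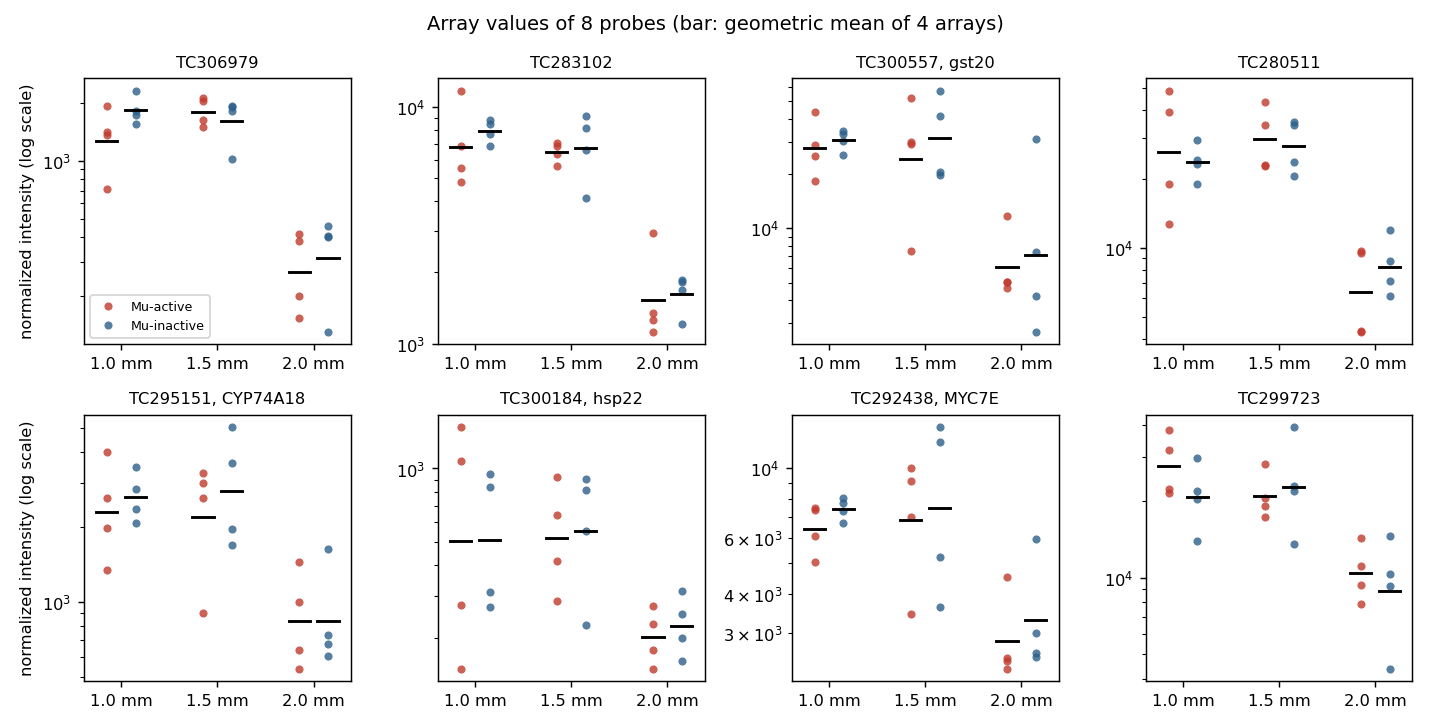
Normalized intensity (log axis) of 8 of the probes in each array at 1.0, 1.5 and 2.0 mm, Mu-active (red) left of Mu-inactive (blue), with a bar at the geometric mean of 4 arrays. TC306979 and TC283102 have no overlap between 1.5 and 2.0 mm, and TC300557 overlaps in both lines, with 1 Mu-inactive array at 30982 at 2.0 mm.

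Few of the 99 could be placed by keyword. The 15 keyword groups were searched in gene names, gene symbols and descriptions, and most probes lack a description. Genes whose symbol matches no keyword, such as EF1-A, are not counted in them. A described gene is counted only where a keyword matches. An allene oxide synthase and a lipid-binding protein named below are thus in neither the hormone nor the lipid group. The group of oxidoreductases and secondary metabolism held 2 of the 99 and 174 of all probes. Transcription factors held 1 of the 99 (233 of all) and protein synthesis and folding 1 (78 of all). The other 12, among them meiosis (18 of all), cell wall (39), pollen wall and tapetum (32), chromatin, replication and cell cycle (63), receptors and kinases (251), transporters (176), hormones (55), photosynthesis and plastids (43), proteases (83), lipid metabolism (54), sugar and starch (35) and transposons (14), held 0 of the 99. At 1.5 mm in both lines, 16 of 18 meiosis and 23 of 32 pollen wall and tapetum probes were detected. So were 37 of 43 photosynthesis and plastid probes and 26037 of all 42034, so the counts do not identify the tissue.

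TC300557 is gst20 (GRMZM2G056388), a glutathione S-transferase, an enzyme that couples glutathione to reactive compounds. It is the only one of the probes named by rank or keyword whose 60-base sequence was at hand, and the sequence shows which stretch of the transcript was read. The probe, 5′ to 3′ and with 32 G or C bases of 60, is
TC300557 probe: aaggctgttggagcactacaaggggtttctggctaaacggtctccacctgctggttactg
In anthers of 2.0 mm, intensities of 5055, 11691, 5020.0 and 4662 (Mu-active) and 30982, 7379.9, 4222 and 2671 (Mu-inactive) were measured. Those of 1.5 mm had 52306, 29989.9, 29083 and 7452 in Mu-active and 20376, 57486, 41503 and 19774 in Mu-inactive anthers. Mu-inactive array 1 at 2.0 mm and Mu-active array 4 at 1.5 mm stood apart, and both lines overlapped. The change was -1.99 ± 0.68 in Mu-active and -2.14 ± 0.86 in Mu-inactive anthers. A further probe of the same gene name, A_92_P016567, was not among the 99. It averaged 2140.1 at 2.0 mm and 12891 at 1.5 mm in Mu-active anthers, and changed by -2.35 in Mu-active and -2.62 in Mu-inactive anthers.

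TC295151 (GRMZM2G033098) is annotated as the cytochrome P450 CYP74A18. CYP74A enzymes are allene oxide synthases, which act in the synthesis of the hormone jasmonic acid. The 2.0 mm intensities were 1002, 1449.6, 641 and 538 in Mu-active and 1628, 609, 739 and 677 in Mu-inactive anthers. The 1.5 mm intensities were 3293, 2623, 3017 and 899 in Mu-active and 1962, 3607, 5032 and 1694 in Mu-inactive anthers. The Mu-inactive values did not overlap and the Mu-active ones did, through the low array 4 at 1.5 mm. The change was -1.39 ± 0.54 in Mu-active and -1.73 ± 0.49 in Mu-inactive anthers. TC292438 (GRMZM2G001930) is MYC7E, also named MYC2a, a basic helix-loop-helix transcription factor. In Arabidopsis, MYC2 is a regulator of jasmonate responses. Mu-active anthers of 2.0 mm gave 2456, 4515, 2493 and 2311, and Mu-inactive anthers 5960.5, 2602, 2996 and 2522. Before, at 1.5 mm, there were 6981, 10009, 9098 and 3445 in Mu-active and 5228, 12123, 13486 and 3629 in Mu-inactive anthers. The values overlapped in both lines, and the change was -1.27 ± 0.41 in Mu-active and -1.18 ± 0.55 in Mu-inactive anthers. At 1.0 mm MYC7E had 7498, 5040.2, 7348 and 6103 in Mu-active and 8042, 7783, 6707 and 7299.7 in Mu-inactive anthers. Within each line, no value of 2.0 mm reached the lowest of 1.0 mm.

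TC300184 (GRMZM2G007729) is hsp22, a small heat shock protein, of a class of chaperones that hold unfolding proteins. Its intensities at 2.0 mm were 179, 150.0, 271 and 229.7 in Mu-active and 200.3, 162, 314 and 251 in Mu-inactive anthers. Anthers of 1.5 mm gave 417, 642, 924 and 286 (Mu-active) and 906, 819, 228 and 551 (Mu-inactive). Its arrays spread widely already at 1.0 mm, with 149.9 to 1478 in Mu-active and 269.6 to 946 in Mu-inactive anthers. The Mu-active values of 1.5 and 2.0 mm did not overlap and the Mu-inactive ones did, and the change was -1.35 ± 0.41 in Mu-active and -1.30 ± 0.50 in Mu-inactive anthers.

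TC287746 is the only gene name with 2 of the 99 probes. Its first, A_92_P035277, had 1389, 1492, 1742 and 1806 at 2.0 mm and 5673, 5067, 3229 and 4251 at 1.5 mm in Mu-active anthers, and 1136, 1231, 2376 and 1810.4 at 2.0 mm and 4796, 2924, 5691 and 4042 at 1.5 mm in Mu-inactive anthers. Its second, A_92_P038023, had 391, 321, 332 and 317 at 2.0 mm and 1235, 640.1, 575 and 950.0 at 1.5 mm in Mu-active anthers, and 318, 255, 473 and 377 at 2.0 mm and 985, 399, 949.8 and 834 at 1.5 mm in Mu-inactive anthers. The changes were -1.48 ± 0.20 in Mu-active and -1.44 ± 0.32 in Mu-inactive anthers for the first probe, and -1.26 ± 0.26 in Mu-active and -1.11 ± 0.36 in Mu-inactive anthers for the second. The second probe overlapped in Mu-inactive anthers and the first in neither line. Both had their lowest Mu-active value of 1.0 mm in array 2, with 2190.4 and 318.

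Other annotated members were picked for their annotation, after their values were seen. CD440308 (GRMZM2G153541, EF1-A), a translation elongation factor that brings aminoacyl-tRNA to the ribosome, had 278, 475, 353 and 293 at 2.0 mm and 812, 898, 1086 and 590.1 at 1.5 mm in Mu-active anthers, with 226, 252, 408 and 293 at 2.0 mm and 765, 728, 655 and 787 at 1.5 mm in Mu-inactive anthers. Its change of -1.28 ± 0.25 in Mu-active and -1.35 ± 0.19 in Mu-inactive anthers was without overlap. It also had the largest difference between lines of the 99, at 1.0 mm, where the log2 level was 0.55 higher in Mu-active anthers. TC298305 (GRMZM2G436092, srp32) changed by -1.13 ± 0.15 in Mu-active and -1.04 ± 0.09 in Mu-inactive anthers, without overlap and with all 8 values of 2.0 mm between 456 and 595. TC286794 (GRMZM2G307252), annotated as SecY, a component of the channel that moves proteins across membranes, changed by -1.04 ± 0.31 in Mu-active and -1.29 ± 0.17 in Mu-inactive anthers. TC287646, annotated with an enzyme regulator activity, changed by -1.32 ± 0.20 in Mu-active and -1.32 ± 0.15 in Mu-inactive anthers. Neither overlapped. TC282509 (GRMZM2G032711, nfc104) changed by -1.22 ± 0.16 in Mu-active and -1.06 ± 0.37 in Mu-inactive anthers and overlapped in Mu-inactive anthers. TC291345 (GRMZM2G022679) is one of the genes that the study assigns to gibberellin inactivation. It had 385, 201, 758 and 266 at 2.0 mm and 947, 1068, 714 and 574 at 1.5 mm in Mu-active anthers and changed by -1.18 ± 0.46 in Mu-active and -1.48 ± 0.29 in Mu-inactive anthers.

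Of the 3 highest intensities, TC299723, with no gene model, stood near the end of the order. In anthers of 2.0 mm, intensities of 11131, 9333, 14375 and 7887 (Mu-active) and 10352, 9307, 14628 and 4378 (Mu-inactive) were measured. Those of 1.5 mm had 19139.7, 28092, 20614 and 17377 in Mu-active and 13592, 21899.9, 39202 and 22993 in Mu-inactive anthers. The change was -1.01 ± 0.24 in Mu-active and -1.36 ± 0.48 in Mu-inactive anthers, and the Mu-inactive values overlapped. The last probes inside the limit were BE051113, TC305110 and TC280106, whose smaller falls of the lines were 1.0038, 1.0008 and 1.0005. The first outside it were TC309080, TC312268 and TC306822, with 0.9973, 0.9965 and 0.9964. The first probe outside the limit on the first step, TC288238, changed by 0.503 there, and the first outside the limit on the line difference, TC311465, differed by 0.583. Without the limit on the line difference, 116 probes would have passed.

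The genes of 24 members had 31 further probes on the array that were not among the 99. Of these, 24 were lower at 2.0 mm in both lines, against 37.8% of all probes, and 12 fell by at least 0.5 in both lines, against 4.53%. Their median change was -0.29 in Mu-active and -0.21 in Mu-inactive anthers. Some carry another gene name and share only the gene model. Where they read the same RNA as a member, they are not independent of the choice. Of the 12 with a mean of at least 300 intensity units at 1.5 mm in both lines, 9 fell by at least 0.5 in both, against 15.4% of the 9411 probes that bright. The other probes of TC293130 and TC300537 include bright ones that stayed level. A_92_P037747 of TC293130 averaged 10987 at 2.0 mm and 10588 at 1.5 mm in Mu-active anthers. The 5 further probes of TC300537 changed by -1.13 to 0.00 in Mu-active anthers, so probes of 1 gene name did not read the same change.

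**Figure D3:**
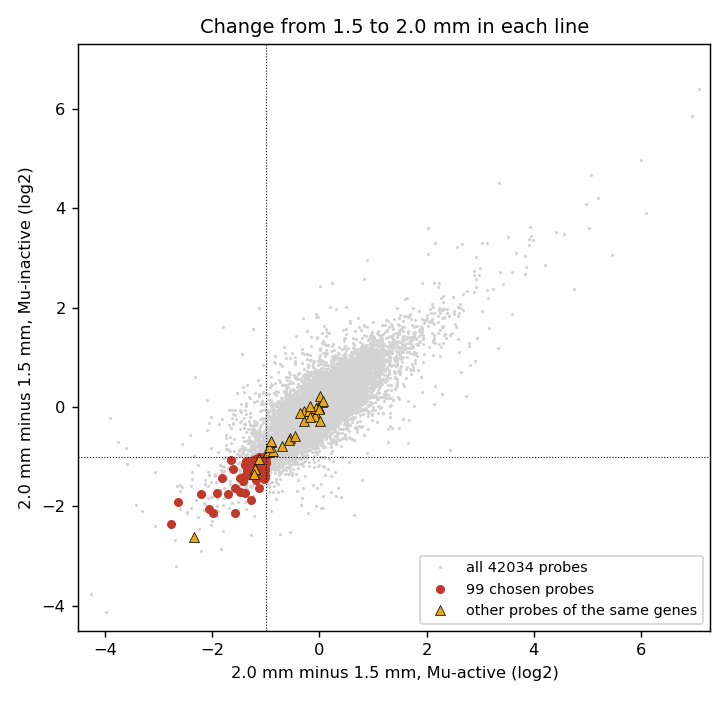
Change from 1.5 to 2.0 mm (log2) in Mu-inactive against Mu-active anthers for all 42034 probes (grey), the 99 chosen probes (red) and the 31 other probes of the same genes (triangles). The dotted lines mark the limit of -1, and 4 of the triangles fell by at least 1 in both lines.

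TC293658 (GRMZM2G069773), with a lipid-binding START domain, is annotated as a polyketide cyclase or dehydratase. A further probe paired with the same gene model, A_92_P015909, overlaps it on the opposite strand. The longest run shared on opposite strands was 17 bases, against 5 on the same strand. The shared stretch of 27 bases is shown 5′ to 3′ on the strand of the TC293658 probe, with the longest identical run in capitals.
TC293658 probe: GGATGCCTGGAAGTGCCctaagcagtc
A_92_P015909 probe, reverse complement: GGATGCCTGGAAGTGCCttaagcagtc
The TC293658 probe averaged 3792 at 2.0 mm and 9413 at 1.5 mm in Mu-active anthers, and A_92_P015909 averaged 112 at 2.0 mm and 136 at 1.5 mm in the same anthers. The opposite strand probe lay near the detection cutoff at both lengths, where a fall could hardly be read, so the strands cannot be compared.

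Lists from the study's other anther arrays give earlier stages for some of the 99. Most hold the transcripts enriched in cells dissected from 0.7 mm anthers, or those that differ between mac1 mutant and wild-type anthers. The connective and vascular list is an exception, since those cells were not dissected. The study assigned to them, presumptively, transcripts lower in every dissected sample than in whole anthers. In the mac1 mutant the subepidermal somatic cells fail to divide into endothecium and secondary parietal cells. The mac1 lists were added after the members were seen. Among the 99 probes, 12 were in the list of transcripts lower or undetected in mac1 at 0.4 mm (12.1%), against 2.41% of all probes and 3.28% of the 26037 detected at 1.5 mm in both lines. The 2 lists of mac1 at 0.2 mm held 0 (lower in mac1, 119 probes) and 1 (higher in mac1, 207 probes) of the 99. Transcripts higher in mac1 at 0.4 mm were not compared, so whether the share is particular to the lower list is not known.

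The epidermis and endothecium list (EE) held 7 of the 99, 7.07% against 2.56% of all probes, and 3.88% of those detected at 1.5 mm. The connective and vascular list (C and V) held 7, 7.07% against 1.93% of all and 3.07% of detected probes. The middle layer and tapetum list (MLT) held 4, 4.04% against 2.27% of all and 3.26% of detected probes. Of 127 probes that rose by at least 1 after 1.5 mm under the same limits, 7 were in the mac1 list of 0.4 mm, 14 in EE, 0 in C and V and 0 in MLT. Of 79 that fell by 1.5 mm and then stayed level, 5 were in the mac1 list, 2 in EE, 4 in C and V and 7 in MLT. These shares were not tested, the lists overlap, and all 99 members were detected probes, of which each list holds a larger share than of all probes. Most of the 99 also lay above the upper quartile of all probes at 1.5 mm. List shares among probes that bright were not compared, for the mac1 list either.

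**Figure D4:**
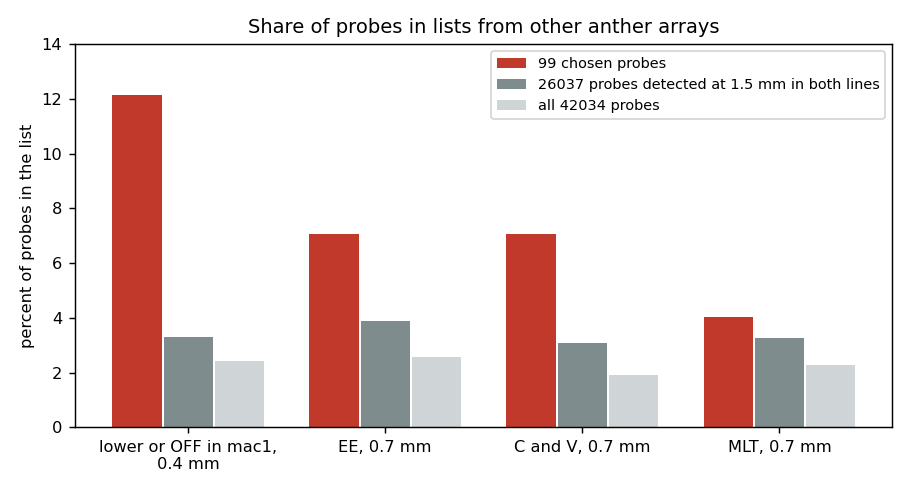
Percent of probes in each of 4 lists from other anther arrays, for the 99 chosen probes (red), the 26037 probes detected at 1.5 mm in both lines (dark grey) and all 42034 probes (light grey). The mac1 list of 0.4 mm held 12.1%, 3.28% and 2.41% of these.

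The mac1 list of 0.4 mm held TC313699, TC312741, TC283415, TC282211, CYP74A18, hsp22, TC293658, MYC7E, BG517609, TC308225, TC284379 and TC302377. Of these, 5 were also in EE: the esterase TC283415, TC293658, MYC7E, BG517609 and TC308225. These 5 were picked from the lists after their values were seen, and they share their most extreme arrays. All 5 had their lowest Mu-active value of 1.5 mm in array 4, which was the lowest for 45 of the 99 probes and 27.1% of all probes. All 5 had their highest Mu-inactive value of 2.0 mm in array 1, the highest for 20 of the 99 and 26.4% of all probes. Over the 99, the arrays that stood out most were Mu-inactive ones of 1.5 mm, where array 3 was the highest for 51 (27.6% of all probes) and array 2 the lowest for 48 (27.1%).

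The esterase TC283415 had the widest spread of the 5 at 1.5 mm in Mu-active anthers and at 2.0 mm in both lines. The 2.0 mm intensities were 373, 801, 82.0 and 195 in Mu-active and 1553, 162, 152 and 117 in Mu-inactive anthers. The 1.5 mm intensities were 2882, 731, 1325 and 133 in Mu-active and 748, 2074, 2195 and 481 in Mu-inactive anthers. Mu-active array 4 at 1.5 mm and Mu-inactive array 1 at 2.0 mm stood far from the other 3, and both lines overlapped. The change was -1.57 ± 1.17 in Mu-active and -2.13 ± 1.02 in Mu-inactive anthers. Without Mu-active array 1 at 1.5 mm the Mu-active change would be -0.94, without array 4 it would be -2.42, and without array 3 at 2.0 mm it would be -1.01. For TC293658 the same arrays were extreme. Mu-active anthers of 2.0 mm gave 3263, 7452, 1135 and 3319, and Mu-inactive anthers 13342, 2254, 1134 and 1626. Before, at 1.5 mm, there were 16484, 11054, 7705 and 2410.1 in Mu-active and 11480.4, 10329, 7593 and 2055 in Mu-inactive anthers. Its change was -1.30 ± 0.82 in Mu-active and -1.27 ± 0.98 in Mu-inactive anthers. Without Mu-active array 3 at 2.0 mm its Mu-active change would be -0.82, and without Mu-inactive array 1 at 2.0 mm its Mu-inactive change would be -2.03 (and -0.84 without array 3). BG517609 had 218, 210.1, 192 and 383 at 2.0 mm and 532, 673, 943 and 391 at 1.5 mm in Mu-active anthers, with no overlap in either line. TC308225 had 159, 104, 79.2 and 87.7 at 2.0 mm and 368, 325, 201 and 109.8 at 1.5 mm in Mu-active anthers, and overlapped in both lines.

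**Figure D5:**
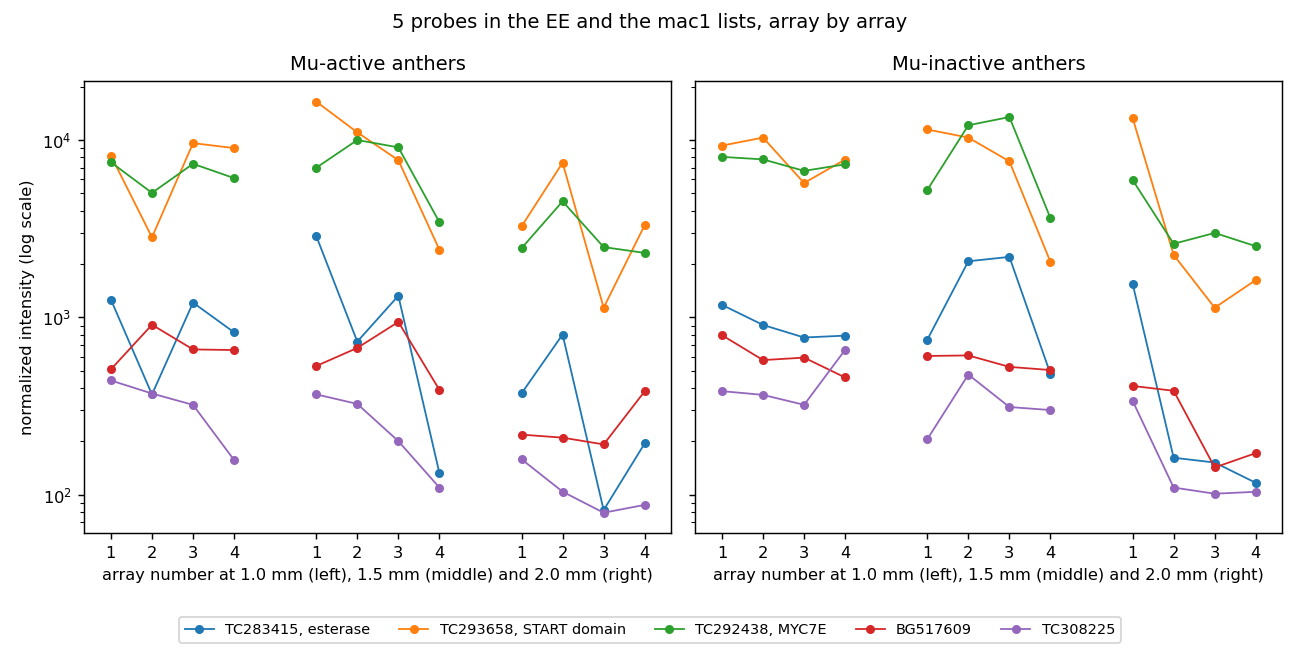
Normalized intensity (log axis) of the 5 probes in both the EE and the mac1 lists, in each array at 1.0, 1.5 and 2.0 mm, Mu-active left and Mu-inactive right. Lines join the arrays of a length for 1 probe and carry no order. Mu-active array 4 at 1.5 mm is the lowest of its 4 for all 5 probes, and Mu-inactive array 1 at 2.0 mm the highest.

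A single array moved a change by more than 1.5 times for 5 of the 99. Besides TC283415 and TC293658, the Mu-inactive change of TC312131 was -1.72 without array 3 at 1.5 mm and -0.67 without array 4, that of TC291273 was -0.68 without array 3 at 1.5 mm, and the Mu-active change of TC312402 was -0.66 without array 3 at 1.5 mm. The cause of the spread between arrays was not tested.

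The lines differed little, as the choice required. The median log2 difference of Mu-active over Mu-inactive anthers was 0.07 at 1.0 mm, -0.0016 at 1.5 mm and -0.01 at 2.0 mm, with ranges of -0.52 to 0.55, -0.54 to 0.44 and -0.51 to 0.51. The SD of the difference over the 4 arrays of a length had medians of 0.42, 0.45 and 0.35. The difference was positive for 58 of the 99 at 1.0 mm, 49 at 1.5 mm and 44 at 2.0 mm. Of the 30 gene models, 23 were placed in the reference annotation of the B73 assembly, and none of them lay within 5 coding genes of another.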

How the data were processed

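Total RNA of whole maize anthers was amplified, labeled and hybridized to 12 two-color arrays, each with 43451 spots, which the authors scanned with Agilent Feature Extraction (version 9.5.3.1 per the file headers). The deposited scanner values used were the median intensity of each spot in both channels, with the deposited outlier, saturation and background flags. The deposited log2 ratios, the authors' means per length, were used only to settle which channel held which line (Pearson r over probes was 0.991 for 1.0 mm anthers, 0.988 for 1.5 mm and 0.991 for 2.0 mm). The array's genome build is not given in the sources used here, and no coordinates were used.

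Intensities were not background-corrected, were loess-normalized inside each array, given equal quantiles over all 24 channels (limma 3.58.1, R 4.3.3) and were averaged on the log2 scale per line and length (Python 3.11.15). A value near background therefore understates a change. Raw probe medians were 1.21-fold to 3.15-fold the average negative control, and the number of arrays limits the precision. On simulated data for this choice, 66 of 100 probes with a planted fall of 1.5 and 70 of 100 with one of 2 were recovered, with 0 of 41834 unchanged probes. The falls were planted only in probes brighter than the median probe, so the recovery does not cover dim ones. The simulation drew the noise of each line separately, though both lines share the spots of an array. It therefore cannot show how often shared noise passes an unchanged probe. No test was run, because each contrast was used to choose the probes, and SDs and SEs are over arrays. The SEs of both lines come from the same arrays.

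The members and lists were chosen with earlier results of these data known. Named were the 12 largest falls, up to 3 per keyword list, gene names with several members, the 3 highest intensities at 1.5 mm, and the last 3 inside and first 3 outside the limit. Other names are said to be chosen after their values were seen. The 15 keyword lists were searched in the array's gene names, the study's gene descriptions and the RefSeq symbols and synonyms. The cell and mac1 lists were taken from the study's tables as lists of probes only. The counts of 1 further list are not reported here. Gene models were paired with 7747 probes (6836 models), of which 5319 models matched the RefSeq table of Zm-B73-REFERENCE-NAM-5.0, and 23 of the 30 models of members did. Alternatives were background correction, other normalizations, the limits, the detection cutoff, dye orientations, exchanged lines and each array left out.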

Additional observations from a re-analysis of the deposited data

Results flagged for a closer look

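In 120 groups of 4 arrays, those of the 20 named probes in each line and length, 6 held an array far from the other 3, where its gap to the nearest, divided by the group's range on the log2 scale, passed Dixon's 95% critical value. Chance flags about 1 in 20 groups. TC306979 had 1020 in Mu-inactive array 2 at 1.5 mm, where the others had 1818 to 1927, and 129.2 in Mu-inactive array 1 at 2.0 mm, where the others had 403.2 to 457.2. The esterase TC283415 had 1553 in Mu-inactive array 1 at 2.0 mm, where the others had 116.8 to 161.8. The glutathione S-transferase TC300557 had 1.169e+04 in Mu-active array 2 at 2.0 mm, where the others had 4662 to 5055. MYC7E (TC292438) had 4515 in the same array, where the others had 2311 to 2493. TC305110 had 683.9 in Mu-inactive array 2 at 1.5 mm, where the others had 362.1 to 397.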

How the results depend on the processing

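All 99 probes were lower at 2.0 than at 1.5 mm in both lines under each alternative that was run. The choice favors this, since the alternatives reuse the arrays that chose the probes. Which probes met all limits changed. Exchanging the lines turns the sign of each line difference. The median first step in Mu-inactive anthers, 0.09, was -0.21 with channels centered on their medians and -0.06 from arrays 1 and 2 only. Of the 99, 96 met all limits after normexp background correction, 92 without loess, 64 with channels centered on their medians, and 55 of the 369 probes found with Agilent's processed signals, where the median change in Mu-inactive anthers was -1.50. A first step under 0.25 left 42 probes, and a fall of at least 1.5 left 9. Leaving out each array number in turn left 57 to 104 probes and 37 to 58 of the 99, lowest without array 3, with median changes of -1.16 to -1.27 in Mu-active and -1.22 to -1.26 in Mu-inactive anthers. From arrays 1 and 2 only, 66 probes and 21 of the 99 met the limits, and from arrays 3 and 4 only, 103 and 28. Fewer arrays per mean enter there, and the cause was not tested. With spike-in medians made equal, 49 probes and 0 of the 99 met the limits, and the median change in Mu-inactive anthers was -1.82. At 2.0 mm, 1 of the 99 was not detected in both lines with a cutoff of 5 SD, and 0 to 1 without an array number. No paired test was run, and the lines are paired by array only in the line differences given as values. Background signal limits the lowest values at 2.0 mm, where 2 of the 99 were not well above background on at least 1 array.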
